A study of Mus musculus with 25 samples.

Results

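The genes described here encode 10 secreted proteins that modulate Wnt signalling outside the cell. They comprise the inhibitors Wif1, Frzb, Sfrp1, Sfrp2, Dkk1, Dkk2 and Dkk3 and the potentiators Rspo1, Rspo2 and Rspo3. They were chosen by name, as the entries with these gene symbols among the 37406 genes of the expression table, and each symbol had 1 entry. Laser capture microdissection was used to cut compartments from the palate of wild type CD1 mouse embryos at E14.5, a stage of palatal shelf growth and fusion. RNA-Seq was carried out on 25 libraries. They came from 8 compartments, namely the medial, lateral, oral and nasal parts of both the anterior and posterior palate, with 3 replicates each and 4 in anterior nasal. Medial and lateral captures divide the same shelves across their width and oral and nasal captures divide them through their depth, so the 4 regions are not separate tissues. In the alignment names 4 libraries carry Tgfbr2_WT and 2 carry ERK2_WT, while the sample labels give CD1 and wild type for all 25. The name of anterior nasal replicate 1 carries Zymo and that of anterior nasal replicate 2 carries SDS. The names also give the sequencing run, 1 of 8.

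Wnt proteins bind Frizzled receptors and the co-receptors Lrp5 and Lrp6, which stabilizes beta-catenin and lets it act with TCF/LEF factors on target genes. Secreted frizzled-related proteins (Sfrp1, Sfrp2 and Frzb, also called Sfrp3) and Wif1 bind Wnt ligands directly. Dkk1 and Dkk2 instead bind Lrp5 and Lrp6, whereas Dkk3 is a diverged member of the family that does not act in the same way on these co-receptors. R-spondins bind Lgr4, Lgr5 and Lgr6 and keep the ubiquitin ligases Rnf43 and Znrf3 from removing Frizzled receptors, so that a cell responds more strongly to a given amount of Wnt. Wnt signalling is required for normal palate growth and fusion in the mouse.

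RPKM values, read numbers scaled to transcript length and library size, were used as deposited. They imply a median depth of 3.27 M reads, the shallowest library having 1.64 M and the deepest 6.56 M. Depth here means the read total behind the deposited values, made after removal of duplicate and multiply aligned reads. It is not the number of reads sequenced, which the study gives as higher. Posterior medial replicate 2 stood apart. It had the fewest genes above 0, 12935, and its log2 values correlated across genes at r = 0.612 and 0.691 with those of the other posterior medial replicates. Anterior oral replicate 1, the shallowest library, also matched its group poorly, at r = 0.745 and 0.661. It held the highest anterior oral levels of Sfrp2, Dkk1 and Dkk2 (787, 25.6 and 50.9 RPKM). Several differences and shares that posterior medial replicate 2 moves are given with and without that library. All 8 palate mesenchyme markers, such as Prrx1 and Osr2, had a mean of at least 1 RPKM in every compartment. So did all 6 endothelial and all 6 red cell markers, so passing this level does not identify the tissue. Markers of other tissues were present too, and those whose summed levels separated the compared groups are given beside the pairwise results. In these bulk captures a lower level can come from fewer expressing cells or from less RNA per cell, and the data cannot tell these apart.

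RefSeq promoter sequence (build GRCm38.p6) was at hand for 6 of the 10 genes, Wif1, Frzb, Sfrp2, Dkk1, Dkk2 and Rspo1. Shown are the 150 bases before the start site for 4 of them that passed the threshold in a comparison described below. They let the paralogues Dkk1 and Dkk2 be compared with each other and with Wif1 and Rspo1. Frzb also passed in a comparison and is not printed. Capitals mark the TCF/LEF letters CTTTGAA or CTTTGAT and the TATA letters TATAAA, searched on both strands.
Dkk1, chr19:30549497-30549646, minus strand: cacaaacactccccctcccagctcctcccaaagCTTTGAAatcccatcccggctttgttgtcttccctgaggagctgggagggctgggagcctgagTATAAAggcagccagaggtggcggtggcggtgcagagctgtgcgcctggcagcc
Dkk2, chr3:132085142-132085291, plus strand: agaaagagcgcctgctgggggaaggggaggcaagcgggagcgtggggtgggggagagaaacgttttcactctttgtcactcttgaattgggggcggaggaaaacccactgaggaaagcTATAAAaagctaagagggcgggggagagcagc
Wif1, chr10:121033854-121034003, plus strand: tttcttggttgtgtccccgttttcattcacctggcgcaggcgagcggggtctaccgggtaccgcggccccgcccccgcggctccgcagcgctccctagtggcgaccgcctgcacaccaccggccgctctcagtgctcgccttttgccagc
Rspo1, chr4:124986280-124986429, plus strand: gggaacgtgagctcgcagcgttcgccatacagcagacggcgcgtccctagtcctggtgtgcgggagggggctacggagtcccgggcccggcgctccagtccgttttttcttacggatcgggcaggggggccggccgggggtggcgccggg
The Dkk1 window held the TCF/LEF letters, beginning 117 bases before the start, and TATA letters at 54 bases. The Dkk2 window held TATA letters at 32 bases and no TCF/LEF letters. Neither was found in these windows of Wif1, Frzb, Sfrp2 or Rspo1. Over 32851 mouse promoters, 4.13% of windows of this length held the TCF/LEF letters and 7.57% the TATA letters. The GC content of the printed windows was 62% for Dkk1, 57.3% for Dkk2, 69.3% for Wif1 and 72% for Rspo1. A match of letters is a description only.

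The 10 genes spanned a wide range of expression. Sfrp2 was the most abundant, at 138.5 to 944 RPKM with a median of 425 over the 25 libraries. It made up 28.3% to 65.3% of the summed RPKM of the 10 genes in anterior and 42.2% to 79.6% in posterior libraries. The share of 79.6% was that of posterior medial replicate 2, without which the highest posterior share was 73.1%. Sfrp1 followed, with a median of 105.3 RPKM and a range of 67.5 to 169. Rspo1 had a median of 67.8 RPKM. Dkk3, Frzb and Dkk2 had medians of 32.0, 29.6 and 25.4 RPKM, and those of Wif1 and Rspo3 were 14.4 and 11.6. Dkk1 was low, with a median of 4.65 RPKM. Rspo2 was below 5 RPKM in every library, at 0.0832 to 3.66 RPKM, or 0.65 to 43.0 reads if the longest coding transcript is assumed. The lowest value is below the 0.127 RPKM that 1 read would give in that library under this assumption. Read numbers of Rspo2 are therefore understated. RPKM is a level per transcript length, so these values can be set against each other. The plot of levels by library shows both the ranking and the scatter among replicates.

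**Figure D1:**
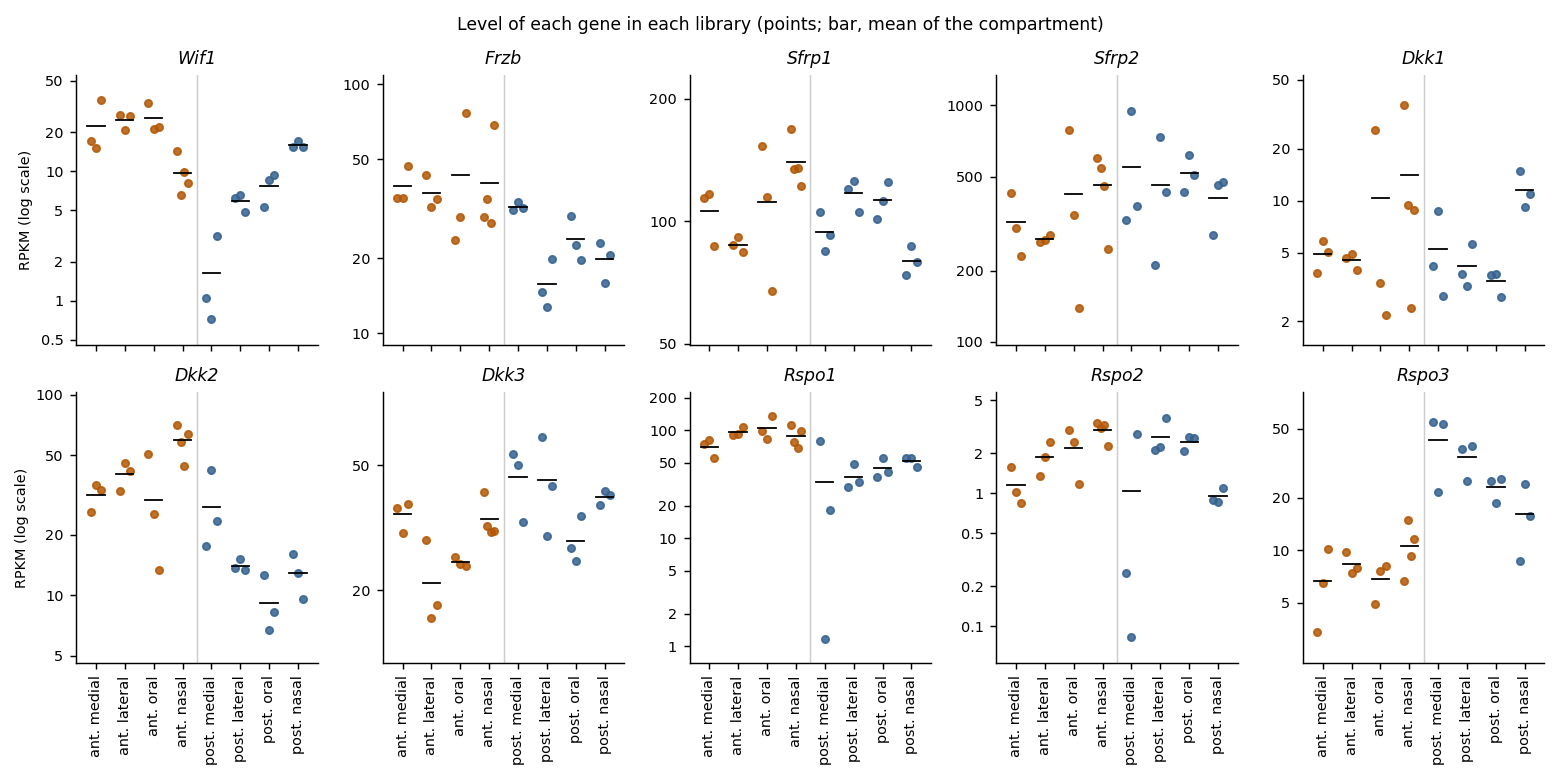
RPKM of each of the 10 genes (log scale, a separate scale in each panel) in each library of the 8 compartments, with anterior libraries in orange, posterior libraries in blue and a bar at the compartment mean. Rspo3 is higher in the posterior compartments, Rspo1, Dkk2 and Frzb are lower there on average, and Wif1 is lowest in posterior medial (mean 1.63 RPKM).

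The level of 3 genes differed among the 8 compartments in a moderated F test (limma, Benjamini-Hochberg adjustment over all genes tested). They were Wif1 (adjusted p = 1.47e-05), Dkk2 (adjusted p = 6.60e-04) and Rspo3 (adjusted p = 7.95e-04), out of 9 members that met the minimum of 5 RPKM in 3 libraries. With the sequencing run as a term the adjusted p of Rspo3 was 0.164 and that of Frzb, 0.119 without the run, was 0.0365. Over all 11913 genes tested, 4.42% were called. Wif1 had the widest range of compartment means, 25.7 RPKM in anterior oral against 1.63 in posterior medial, a ratio of 15.7. The corresponding ratios were 6.43 for Rspo3 and 6.41 for Dkk2. Sfrp1, Sfrp2, Dkk1 and Dkk3 had adjusted p-values of 0.349, 0.913, 0.865 and 0.0615. With compartments ordered by their means, these 4 genes and also Rspo2 and Rspo3 overlapped with the next compartment at every step. For Sfrp2 the spread between replicates of a compartment was itself large, as in anterior oral, with 787, 344 and 138.5 RPKM.

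Most of the calls lay along the anterior to posterior axis, the comparison with the most libraries. It set 13 against 12, while the other pairwise comparisons had 3 or 4 libraries a side and another expression minimum. Counts of calls can therefore not be compared between axes. Of the 8 members that met the minimum of 10 RPKM in 6 libraries, 5 differed between the 13 anterior and 12 posterior libraries at an adjusted p under 0.05 (limma), against 3.32% of all 8608 genes tested (143 higher and 143 lower in the posterior, or 114 and 179 with each library centred on its median). Rspo3 was higher in the posterior palate, and Wif1, Frzb, Dkk2 and Rspo1 were lower there. Sfrp1, Sfrp2 and Dkk3 were not called, and Dkk1 and Rspo2 were below the minimum. This fit pooled the regions and took all 25 libraries as independent, although the labels do not say which share an embryo. The difference plot gives all tested values with their standard errors.

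**Figure D2:**
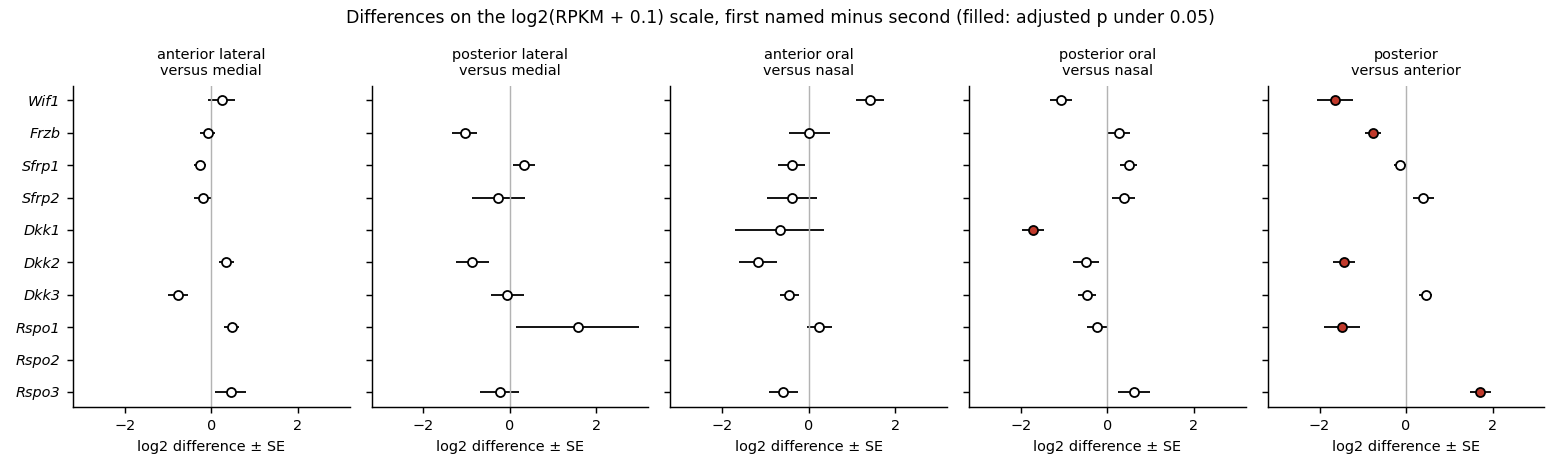
Log2 difference of each tested gene in 5 comparisons (first named minus second, log2(RPKM + 0.1) scale), with the standard error as the horizontal bar. Filled points have an adjusted p under 0.05, which holds for Dkk1 in posterior oral versus nasal and for 5 genes in posterior versus anterior.

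Rspo3 and Rspo1 differed in opposite directions along this axis. Rspo3 (gene ID 72780, chromosome 10, 29172913 to 29255673; positions throughout are as the table lists them, mm9 in the submitters' processing notes) is a vascular and developmental R-spondin. In the anterior libraries it had 3.38, 6.52 and 10.2 RPKM in medial, 9.76, 7.41 and 7.94 in lateral, 4.89, 7.65 and 8.09 in oral, and 6.66, 14.9, 9.22 and 11.6 in nasal. In the posterior libraries it had 54.2, 21.7 and 53.3 RPKM in medial, 38.4, 25.1 and 39.9 in lateral, 24.96, 18.7 and 25.6 in oral, and 8.68, 23.9 and 15.8 in nasal. Posterior levels exceeded the highest anterior level in 11 of 12 libraries, and the exception was posterior nasal replicate 1. The log2 difference was 1.72 (SE 0.25, 3.29-fold, limma adjusted p = 5.77e-05), and it was 1.74 without posterior medial replicate 2. By region the log2 difference was 2.69 in medial, 2.01 in lateral, 1.75 in oral and 0.54 in nasal, where the libraries overlapped. Within single sequencing runs that held both ends, the posterior minus anterior log2 difference of Rspo3 was 2.46 in medial, 1.98 in lateral, 1.61 in oral and -0.42 in nasal. With the run as a term in a fit of all 25 libraries it was 1.41 (adjusted p = 0.0996).

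Rspo1 (gene ID 192199, chromosome 4, 124663674 to 124686343), an R-spondin known for its part in ovary determination, showed the reverse. Anterior levels were 74.8, 81.0 and 55.2 RPKM in medial, 90.7, 91.9 and 106.5 in lateral, 97.9, 83.4 and 136.5 in oral, and 111.3, 78.6, 67.8 and 97.8 in nasal. Posterior levels were 80.3, 1.16 and 18.3 RPKM in medial, 29.5, 48.9 and 33.3 in lateral, 36.7, 55.3 and 40.9 in oral, and 54.8, 55.0 and 45.6 in nasal. In 10 of 12 posterior libraries Rspo1 was below the lowest anterior library. The lowest value, 1.16 RPKM in posterior medial replicate 2, corresponds to about 5 reads. The log2 difference was -1.47 (SE 0.42, 2.78-fold lower in the posterior, limma adjusted p = 0.0489), close to the threshold. Leaving out one library at a time gave log2 differences of -1.60 to -1.05 and an adjusted p under 0.05 in 4 of 25 fits. Without posterior medial replicate 2 it was -1.05 with an adjusted p of 4.02e-04. The adjusted p was 0.0885 with the sequencing run as a term, 0.0764 with the replicate number as a block, and 0.0942 without the 6 libraries named Tgfbr2_WT or ERK2_WT.

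The balance between these R-spondins followed the same axis. The ratio of Rspo3 to Rspo1 was 0.0452 to 0.190 (median 0.0806) in the anterior and 0.159 to 18.7 (median 0.651) in the posterior libraries, and 11 of 12 posterior libraries exceeded the highest anterior ratio. The ratio of 18.7 is that of posterior medial replicate 2, without which the highest was 2.91 and the posterior median 0.627. Rspo3 had the higher level of the pair in 4 posterior and 0 anterior libraries. Rspo3 made up a median of 7.37% of the summed R-spondin RPKM in the anterior and 38.1% in the posterior palate. Within the posterior palate its mean share was 68.8% ± 27.3 in the medial, 46.6% ± 11.9 in the lateral, 33.5% ± 8.02 in the oral and 22.9% ± 8.48 in the nasal compartment (SD, n = 3 each). Without posterior medial replicate 2 the medial mean was 55.9% (n = 2). The summed RPKM of Rspo1, Rspo2 and Rspo3 had a median of 101.2 in the anterior and 72.2 in the posterior libraries, with overlapping ranges of 66.2 to 145.8 and 22.9 to 134.7, where the lowest posterior sum was 62.6 without posterior medial replicate 2. These ratios and sums restate the levels above and carry no test of their own.

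**Figure D3:**
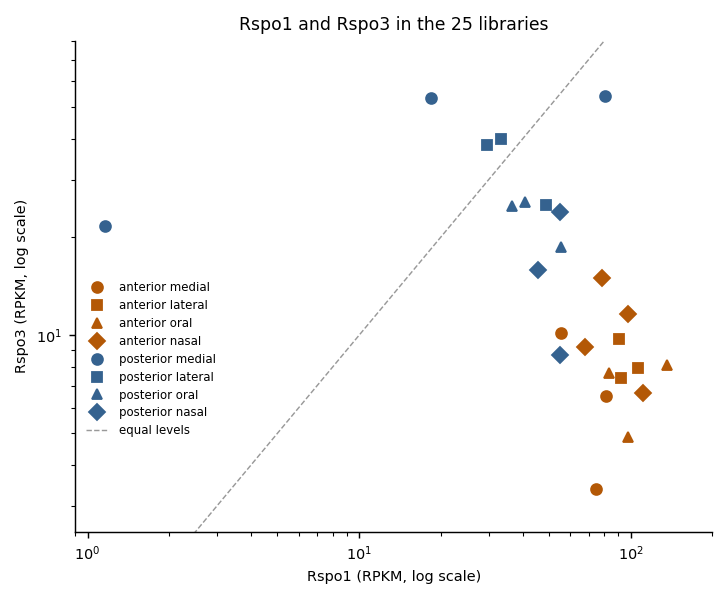
Rspo3 against Rspo1 in each of the 25 libraries (RPKM, both axes on a log scale), with anterior libraries in orange, posterior in blue, a symbol for each region, and a dashed line where the levels are equal. Anterior libraries lie at the lower right, and 4 posterior libraries lie above the line of equal levels, 1 of them far to the left at 1.16 RPKM of Rspo1.

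Rspo2 (gene ID 239405, chromosome 15, 42852341 to 43002372), which is needed for limb and lung outgrowth, was too low for any of the tests. Its means were 0.950 ± 0.124 RPKM (SD, n = 3) in posterior nasal and 2.43 ± 0.321 in posterior oral, with libraries that did not overlap. Anterior nasal had the highest mean, 2.99 ± 0.496 RPKM (n = 4). In a fit without a minimum, the posterior oral minus nasal log2 difference was 1.27 (SE 0.24) with an adjusted p of 0.161 over 20679 genes. The median library held about 20.9 reads of Rspo2 under the assumed transcript length, a number that is understated as described above.

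Among the Dkk genes, Dkk2 was higher in the anterior palate. Dkk2 (gene ID 56811, chromosome 3, 131748256 to 131843268) encodes an Lrp6 ligand that can block or weakly activate the pathway. Dkk2 had 25.9, 35.5 and 33.4 RPKM in anterior medial, 33.0, 45.7 and 41.8 in anterior lateral, 50.9, 25.4 and 13.3 in anterior oral, and 70.4, 58.0, 44.2 and 63.9 in anterior nasal. In the posterior it had 17.6, 41.9 and 23.4 RPKM in medial, 13.6, 15.3 and 13.3 in lateral, 12.598, 6.76 and 8.31 in oral, and 16.1, 12.9 and 9.58 in nasal. Anterior and posterior levels did not overlap in lateral, oral and nasal, but did in medial. The medial overlap came from posterior medial replicate 2, at 41.9 RPKM. Posterior medial replicates 1 and 3, at 17.6 and 23.4 RPKM, lay below the lowest anterior medial library. The posterior minus anterior log2 difference was -1.42 (SE 0.25, 2.68-fold, limma adjusted p = 8.58e-04). Without posterior medial replicate 2 it was -1.57 (limma adjusted p = 4.92e-05). By region, with all libraries, it was -0.28 in medial, -1.49 in lateral, -1.53 in oral and -2.20 in nasal. Between libraries of one run it was -1.54 in lateral and -1.98 in nasal, and near 0 in medial (-0.00015) and oral (-0.0825). The medial value within the run includes posterior medial replicate 2. With the run as a term the posterior minus anterior difference was -0.90 (adjusted p = 0.156). Anterior nasal, at 59.1 ± 11.2 RPKM (SD, n = 4), had the highest mean of the 8 compartments, though its range overlapped with that of anterior lateral.

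Dkk3 (gene ID 50781, chromosome 7, 119259533 to 119302571) had means of 21.03 to 34.9 RPKM in the anterior and 28.8 to 45.8 in the posterior compartments. In 5 of 12 posterior libraries Dkk3 was above the highest anterior library. The log2 difference was 0.45 (SE 0.16) and did not pass after adjustment (limma adjusted p = 0.129). It did pass when the 8 compartments were fitted separately (0.47, adjusted p = 0.0323). Dkk1 was below the minimum, and its ranges were 2.18 to 36.0 RPKM in the anterior and 2.79 to 14.8 in the posterior libraries. The highest anterior values, 36.0 RPKM in anterior nasal replicate 1 and 25.6 in anterior oral replicate 1, came from a sequencing run that also held anterior nasal replicate 2, at 9.50 RPKM. The alignment names of anterior nasal replicates 1 and 2 differ, carrying Zymo and SDS.

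Among the Wnt-binding inhibitors, Wif1 and Frzb were lower in the posterior palate on average. Frzb (gene ID 20378, chromosome 2, 80252127 to 80287553), first found as a cartilage protein, had 35.03, 34.9 and 46.9 RPKM in anterior medial, 43.1, 32.1 and 34.6 in anterior lateral, 23.7, 29.3 and 76.8 in anterior oral, and 29.3, 34.7, 27.6 and 68.4 in anterior nasal. Posterior levels were 31.1, 33.5 and 31.8 RPKM in medial, 14.6, 12.7 and 19.9 in lateral, 29.6, 22.5 and 19.7 in oral, and 23.002, 15.9 and 20.5 in nasal. The highest values, in anterior oral replicate 3 and anterior nasal replicate 4, came from libraries of the same run named Tgfbr2_WT. The log2 difference was -0.77 (SE 0.19, 1.71-fold, limma adjusted p = 0.0164), and it passed in each of the 25 fits that left out 1 library, with a range of -0.83 to -0.68. With the run as a term it was -1.07 (adjusted p = 0.00457). In 8 of 12 posterior libraries Frzb was below the lowest anterior library. Summed RPKM of 8 cartilage markers was 27.4 to 132.5 in the anterior and 61.5 to 167 in the posterior libraries, and its part in the Frzb difference was not tested.

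Wif1 (gene ID 24117, chromosome 10, 120471060 to 120537698) had a posterior minus anterior log2 difference of -1.65 (SE 0.42, 3.13-fold, limma adjusted p = 0.0246), but the regions did not share a direction. Anterior levels were 17.1, 15.1 and 35.4 RPKM in medial, 27.4, 20.9 and 26.8 in lateral, 33.7, 21.4 and 22.0 in oral, and 14.4, 6.54, 9.84 and 8.10 in nasal. Posterior levels were 1.05, 0.717 and 3.13 RPKM in medial, 6.22, 6.54 and 4.83 in lateral, 5.29, 8.62 and 9.36 in oral, and 15.4, 17.0 and 15.3 in nasal. Posterior libraries lay below anterior ones without overlap in medial, lateral and oral, with log2 differences of -3.86, -2.08 and -1.73. In nasal all posterior libraries lay above all anterior ones, with a log2 difference of 0.77. Within single runs the values were -3.69, -2.23, -2.04 and 0.92. In the posterior medial libraries Wif1 rests on few reads, down to about 3.86. With the run as a term the difference was -1.76 (adjusted p = 0.0246). Without posterior medial replicate 2 it was -1.39 (adjusted p = 0.0225), and without the 6 libraries named Tgfbr2_WT or ERK2_WT it was -1.62 (adjusted p = 0.0693).

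**Figure D4:**
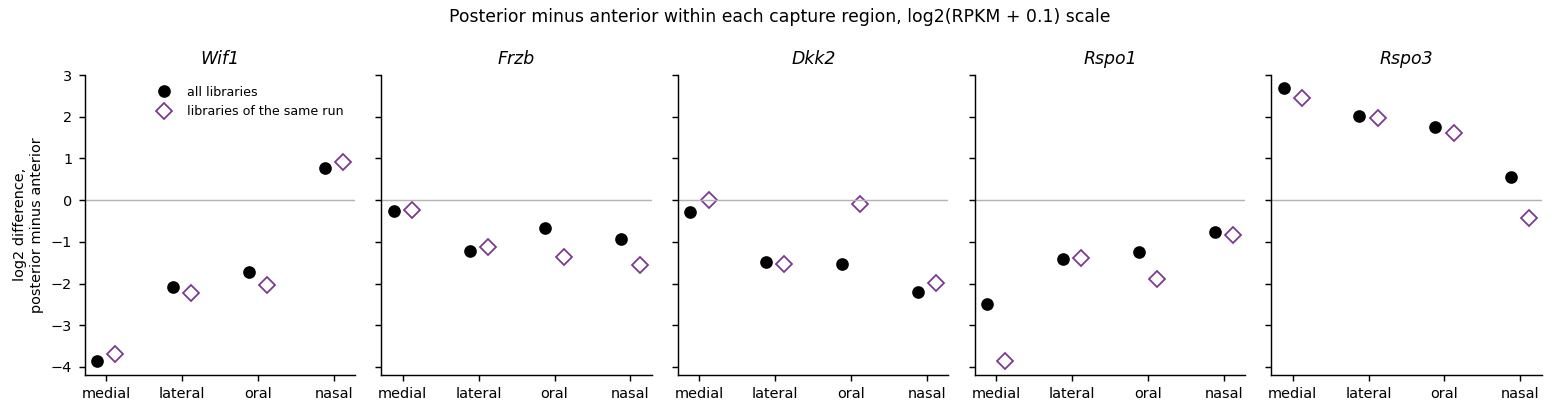
Posterior minus anterior log2 difference (log2(RPKM + 0.1) scale) of the 5 called genes in each capture region, from all libraries (filled circles) and from libraries of the same sequencing run (open diamonds, 1 to 3 libraries a side). Wif1 changes sign in nasal, at 0.77 and 0.92, and Dkk2 lies near 0 within the run in medial and oral. The medial values include posterior medial replicate 2.

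Sfrp1 (gene ID 20377, chromosome 8, 24521974 to 24560104) and Sfrp2 (gene ID 20319, chromosome 3, 83570243 to 83578236), both secreted decoys with a Frizzled-like domain, were not called along this axis. Anterior libraries averaged 113 ± 29.5 RPKM of Sfrp1 (SD, n = 13) and posterior ones 101 ± 17.7 (n = 12), a log2 difference of -0.14 (SE 0.13, limma adjusted p = 0.674). Its regions pointed different ways, since posterior lateral lay above anterior lateral (117 ± 10.6 and 87.6 ± 3.68 RPKM, n = 3 each) and posterior nasal lay below anterior nasal (80.03 ± 6.73, n = 3, and 140 ± 19.99 RPKM, n = 4), both without overlap. For Sfrp2 the averages were 376 ± 180 and 483 ± 202 RPKM, a log2 difference of 0.40 (SE 0.24, limma adjusted p = 0.475). Counted over regions, posterior and anterior libraries did not overlap for 3 of 9 members in medial, against 11.9% of all genes at this minimum. The numbers were 7 of 8 in lateral (18.9% of all genes), 4 of 8 in oral (8.26%) and 5 of 9 in nasal (20.3%). The exception in lateral was Sfrp2.

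Markers of other tissues were compared along the same axis. Summed RPKM of 12 epithelial markers was 55.9 to 173 in the anterior and 30.9 to 243 in the posterior libraries, that of 8 bone markers 48.1 to 194 and 57.1 to 680, and that of 6 endothelial markers 69.9 to 191 and 55.2 to 191. Red cell markers summed to 299 to 645 and 333 to 971, skeletal muscle markers to 7.87 to 109.5 and 4.01 to 178, macrophage markers to 33.8 to 88.9 and 36.9 to 101, and nerve markers to 12.602 to 61.8 and 11.5 to 49.3. All of these ranges overlapped with the regions pooled, but within single regions some did not. In nasal, bone markers summed to 101 to 148 in the anterior and 474 to 680 in the posterior libraries. Epithelial markers there summed to 92.5 to 173 and 45.7 to 81.7, and palate mesenchyme markers to 623 to 851 and 469 to 566. In lateral, epithelial markers summed to 55.9 to 113.7 and 30.9 to 52.1, and cartilage markers to 27.4 to 30.8 and 61.5 to 87.5. Nerve markers there summed to 18.1 to 21.96 and 11.7 to 15.1, and palate mesenchyme markers to 720 to 769 and 658 to 690. In oral, epithelial markers summed to 57.9 to 124 and 34.9 to 56.2, and bone markers to 48.1 to 81.1 and 97.4 to 123. Cartilage markers there summed to 44.98 to 60.3 and 76.2 to 119. Red cell markers summed to 299 to 483 and 621 to 971, and macrophage markers to 41.9 to 52.0 and 69.2 to 81.3. The part of these cell types in the differences of the 5 genes was not tested.

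Along the oral to nasal axis Dkk1 differed in the posterior palate. Dkk1 (gene ID 13380, chromosome 19, 30620374 to 30623986), the founding Lrp5 and Lrp6 antagonist with a role in head formation, had 3.73, 3.78 and 2.79 RPKM in posterior oral and 14.8, 9.16 and 10.9 in posterior nasal. The posterior nasal libraries were all higher, without overlap. The oral minus nasal log2 difference was -1.71 (SE 0.25, 3.28-fold, limma adjusted p = 0.0212), and this was the 1 member called of 9 tested, against 1.25% of all 10586 genes. Libraries of the same run gave -1.96 and -1.47. Leaving out an oral library moved the adjusted p to between 0.0564 and 0.0955 with a log2 difference of -1.79 to -1.58, and leaving out a nasal library put Dkk1 below the minimum. In the fit of all 25 libraries, which includes the scattered anterior Dkk1 values, the adjusted p was 0.884. Summed RPKM of 8 bone markers was 474 to 680 in posterior nasal and 97.4 to 123 in posterior oral, with 7 and 6 of the 8 markers at a mean of 1 RPKM or more. Endothelial markers went the other way, at 55.2 to 85.9 and 126 to 191, as did red cell markers, at 333 to 552 and 621 to 971. Epithelial markers overlapped at 45.7 to 81.7 and 34.9 to 56.2. The part of these cell types in the Dkk1 difference was not tested.

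Wif1 was also higher in posterior nasal than in posterior oral, and in the anterior palate it was higher in oral. The posterior oral minus nasal log2 difference was -1.07 (SE 0.26, unadjusted p = 0.00306, limma adjusted p = 0.129), and the anterior one was 1.42 (SE 0.33, unadjusted p = 0.00229, limma adjusted p = 0.644). Neither passed after adjustment, although libraries did not overlap in either. The difference between these differences was -2.49 (SE 0.43, limma adjusted p = 0.103), which ranked 8th of 11442 genes by p and also missed the threshold. Libraries of the same run gave 1.78, 1.11 and 1.43 in the anterior and -1.53 and -0.92 in the posterior palate. Of 9 members, 0 were called for this interaction, against 0.0350% of all genes. At an unadjusted p under 0.05 there were 3 members and 387 genes, 3.38% of all (limma).

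In the anterior oral to nasal comparison limma called 0 of the 9 tested members at an adjusted p under 0.05 and 2 at an unadjusted p under 0.05, and of all 10684 genes 0% were called, with 318 at an unadjusted p under 0.05. Besides Wif1, the member with an unadjusted p under 0.05 was Dkk2, at 29.9 ± 19.2 RPKM (SD, n = 3) in oral and 59.1 ± 11.2 (n = 4) in nasal. Dkk2 had a log2 difference of -1.17 (SE 0.43, limma adjusted p = 1.00). Dkk3 did not overlap either, with 25.4, 24.2 and 23.9 RPKM in oral and 41.1, 32.0, 30.6 and 31.0 in nasal, a log2 difference of -0.45 (SE 0.22, limma adjusted p = 1.00). Cartilage markers summed to 44.98 to 60.3 RPKM in anterior oral and 76.4 to 129.6 in anterior nasal, bone markers to 48.1 to 81.1 and 101.4 to 148, and endothelial markers to 121 to 191 and 69.9 to 118. Their part in the Wif1, Dkk2 and Dkk3 values was not tested. In the posterior palate Dkk3 was again lower in oral, at 27.2, 24.7 and 34.4 RPKM against 37.3, 41.5 and 40.1 (-0.47, SE 0.21, limma adjusted p = 0.662). Sfrp1 had 113 ± 11.9 RPKM in posterior oral and 80.03 ± 6.73 in posterior nasal (n = 3 each), a log2 difference of 0.49 (SE 0.20, limma adjusted p = 0.556). Libraries did not overlap for 2 of 9 members in the anterior (3.67% of all genes tested) and for 4 of 9 in the posterior palate (11.8%).

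Along the medial to lateral axis limma called 0 of 8 members in the anterior palate, where 2.51% of all 10427 genes were called. At an unadjusted p under 0.05 there were 2 members and 15.0% of all genes. They were Dkk3 and Rspo1, the 2 members whose libraries did not overlap, which held for 21.3% of all genes tested. Dkk3 had 36.5, 30.5 and 37.7 RPKM in medial and 28.8, 16.3 and 17.98 in lateral, without overlap. The lateral minus medial log2 difference of Dkk3 was -0.77 (SE 0.22, limma adjusted p = 0.141), and it passed in 1 of 6 fits with a library left out (-1.02, adjusted p = 0.0391, without anterior lateral replicate 1). Rspo1 was higher in lateral, at 96.4 ± 8.82 against 70.3 ± 13.5 RPKM (SD, n = 3 each), with a log2 difference of 0.47 (SE 0.17, limma adjusted p = 0.237). Cartilage markers summed to 84.4 to 132.5 RPKM in anterior medial and 27.4 to 30.8 in anterior lateral. Epithelial markers summed to 113.6 to 173 and 55.9 to 113.7, which narrowly overlapped. Palate mesenchyme markers summed to 641 to 712 and 720 to 769. Nerve markers summed to 38.1 to 61.8 and 18.1 to 21.96 RPKM, and endothelial markers to 102.3 to 123 and 142 to 162. Their part in these values was not tested. No sequencing run held both medial and lateral libraries of the anterior palate, or of the posterior palate, so run and compartment cannot be told apart on this axis.

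In the posterior palate limma called 0 of 7 members between lateral and medial at an adjusted p under 0.05, 1 at an unadjusted p under 0.05, and 0% of all 10324 genes, of which 159 had an unadjusted p under 0.05. The member was Frzb, which had 31.1, 33.5 and 31.8 RPKM in medial and 14.6, 12.7 and 19.9 in lateral. The medial libraries were all higher, and the lateral minus medial log2 difference was -1.05 (SE 0.28, limma adjusted p = 0.957). Dkk2 did not overlap either, at 27.6 ± 12.7 RPKM in medial and 14.1 ± 1.04 in lateral (SD, n = 3 each). Its log2 difference was -0.87 (SE 0.38, limma adjusted p = 0.957), and -0.53 without posterior medial replicate 2. Libraries did not overlap for 2 of the 7 members, against 6.62% of all genes tested. Wif1 went the other way, with a mean of 5.86 RPKM in lateral and 1.63 in medial and no overlap, but it was below the minimum. In a fit without a minimum its log2 difference was 2.03 (SE 0.58, limma adjusted p = 0.938). Rspo1 differed by 1.57 (SE 1.43), a value that turned to -0.08 without posterior medial replicate 2. Epithelial markers summed to 75.6 to 243 RPKM in posterior medial and 30.9 to 52.1 in posterior lateral, and their part in these values was not tested. For the change of the lateral-medial difference from anterior to posterior, 0 of 9 members were called (limma, 0.00902% of all 11089 genes). At an unadjusted p under 0.05 there were 4 members and 373 genes, 3.36% of all. The members were Wif1, Frzb, Sfrp1 and Dkk2, at log2 values of 1.79, -0.96, 0.58 and -1.22.

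The partners of these proteins were examined through lists of other Wnt pathway genes. Along the anterior to posterior axis 3.32% of all 8608 genes tested were called, the share to set beside the counts that follow. Of 10 further secreted inhibitors and R-spondins, 2 met the minimum on this axis and 1 was called. It was Sfrp4, another secreted frizzled-related protein, with a posterior minus anterior log2 difference of -2.33 (SE 0.50, limma adjusted p = 0.0055). Sfrp4 had 28.2 ± 12.95 RPKM (SD, n = 4) in anterior nasal and 2.80 ± 2.75 (n = 3) in posterior lateral. Of 9 receptors of Dkk and R-spondin proteins 4 were tested and 1 was called, the R-spondin receptor Lgr4, at -0.68 (SE 0.13, limma adjusted p = 0.0014). Lgr4 had compartment means of 29.0 to 37.6 RPKM in the anterior and 17.3 to 22.8 in the posterior palate. Of 21 Wnt ligands and export genes 3 were tested and 1 was called, Wnt5a, a mostly non-canonical ligand, at -1.99 (SE 0.23, limma adjusted p = 1.59e-06). Of 13 Frizzled and co-receptor genes 8 were tested and 1 was called, Fzd1, which was higher in the posterior palate at 0.73 (SE 0.13, limma adjusted p = 8.58e-04). Of 18 beta-catenin pathway and feedback genes 15 were tested and 0 were called, with a median log2 difference of 0.05 beside 0.03 over all genes tested. With the run as a term 143 genes were called on this axis in place of 286. Values with the run are not given for Sfrp4, Lgr4, Wnt5a or Fzd1.

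In the pairwise comparisons along the other axes 6 calls were made on these lists, with 0 in anterior oral against nasal and 0 in posterior lateral against medial. Over all genes tested, 2.51% were called in anterior lateral against medial and 1.25% in posterior oral against nasal. In anterior lateral against medial, the R-spondin receptor Lgr6 and the TCF/LEF factor Tcf7 were lower in lateral (-1.52 and -1.50), and the ligand Wnt2, the receptor Fzd6 and the target gene Wisp1 were higher (1.82, 1.75 and 0.99). With the run as a term 0 genes were called in that comparison. In posterior oral against nasal, Tcf7 was lower in oral, at 8.69 ± 1.11 against 45.0 ± 5.41 RPKM (SD, n = 3 each), a log2 difference of -2.36 (SE 0.21, limma adjusted p = 0.00326). It was the 1 call among 16 tested genes of the beta-catenin list there. Over the 8 compartments the F test called 4.42% of all 11913 genes. On the lists it called 3 of 7 Wnt ligand and export genes, 3 of 13 Frizzled and co-receptor genes, 2 of 16 beta-catenin genes, 0 of 7 receptors and 0 of 3 secreted inhibitors and R-spondins.

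The genes whose log2 levels were most like those of each member over the 25 libraries were listed among 11913 genes by Pearson correlation. The libraries share compartments, runs and depth, so these values are descriptions. Rspo1 was most like Heyl (r = 0.936, rho = 0.827), Pcdhb15 (0.932, 0.778) and Dapk1 (0.922, 0.704). Rspo3 was most like Flrt2 (0.878, 0.832), Meox2 (0.857, 0.786) and Cdh18 (0.836, 0.778). For Dkk1 the nearest gene was the homeobox gene Msx2 (0.851, 0.716), and for Dkk2 the transcription factor gene Pax3 (0.797, 0.743). Dkk3 was most like Pappa (0.862, 0.862), Wif1 most like Mc4r (0.837, 0.676), Frzb most like Fryl (0.798, 0.763), Sfrp1 most like Snx3 (0.817, 0.747) and Sfrp2 most like Itm2a (0.824, 0.775). Among the members themselves, Wif1 and Rspo3 had r = -0.73 and rho = -0.74, and Wif1 and Rspo1 had r = 0.687 and rho = 0.625. Rspo1 and Rspo3 had r = -0.478 and rho = -0.719. All correlations include posterior medial replicate 2, with 1.16 RPKM of Rspo1, and none was computed without it.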

How the data were processed

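RNA from laser capture samples was amplified (NuGEN Ovation V2), tagmented with Nextera and sequenced as single-end reads of 50 bases. The authors deposited RPKM values made with GeneSpring after removal of duplicate and multiply aligned reads, and the submitters' processing notes name TopHat and mm9. Libraries were grouped by the labels, and runs were read from alignment names. The study describes the replicates as biological. The labels do not say which libraries share an embryo.

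Comparisons used limma 3.58.1 (R 4.3.3; lmFit, eBayes) on log2(RPKM + 0.1), so fold changes of low genes are understated. Genes needed 5 RPKM in 3 compared libraries, or 10 RPKM in 6 for anterior against posterior. For anterior against posterior this replaced the Audic-Claverie test of the study, which needs counts. Adjusted p-values are Benjamini-Hochberg over all genes tested, and a call is an adjusted p under 0.05. The members and gene lists were chosen with earlier results of these data known. All 10 members were named. From the lists, the genes called in a comparison were named.

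Depth was inferred from the smallest RPKM steps, and the relative depths of library pairs closed in 275 of 276 checks. Lengths of 482 of 1642 genes in GENCODE M21 matched the total chosen, against 117 at the next best. Read numbers per gene assume the longest coding transcript and are approximate. The fits were tested on simulated data. Lrp6 and Spp1 had more than 1 entry, and the one with the highest mean was used. Same-numbered libraries of anterior oral and nasal deviated together weakly (correlations 0.242, 0.218 and 0.116). Correlations in other comparisons reached 0.327, and same-numbered libraries did not always share a run. Anterior oral replicate 2 shared run 0324 with nasal replicate 3, and oral replicate 3 shared run 0175 with nasal replicate 4. Whether the numbers pair libraries is thus not known, and the replicate block rests on them. Both the blocked fit and the unblocked one called 0 members in anterior oral against nasal. Python 3.11.15 and matplotlib 3.10.9 were used for tables and figures.

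Alternatives were pseudocounts of 1 and 0.01, no minimum, centring on the median, the replicate number as a block, 1 fit of all 25 libraries without and with the run, and each library left out. The fit without the 6 libraries named Tgfbr2_WT or ERK2_WT, and the R-spondin ratios and shares without posterior medial replicate 2, were added after the data were seen.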

Additional observations from a re-analysis of the deposited data

Results flagged for a closer look

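A single library stood apart from its group in 1 gene. Dkk3 in anterior nasal had 41.1 RPKM in replicate 1 against 30.6 to 32.0 in the other libraries, a gap of 0.870 of the whole range, above Dixon's 95% critical value for 4 samples. Anterior nasal was the one compartment with enough libraries for this check, 10 genes were examined in it, and chance alone sets off about 1 in 20 such checks. The alignment name of this library carries Zymo. Without it the anterior oral minus nasal log2 difference of Dkk3 was -0.35, the smallest in size of the 7 fits that each left out 1 library, and 0 of these fits passed an adjusted p of 0.05 (limma).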

How the results depend on the processing

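Over all alternatives, 1251 values of single members kept direction and side of the threshold, 36 lost and 13 gained the call, and 38 changed sign, none of them a called value. The depth limits Rspo2, Dkk1 and posterior medial Wif1, and groups of 3 libraries limit every pairwise comparison. Alternatives moved the number of genes called from 262 in anterior lateral against medial to 157 without a minimum, 157 with the replicate block, 31 in the fit of all 25 libraries and 0 with the run as a term. In posterior lateral against medial it went from 0 to 25 in the fit of all 25 libraries and 1 with the run, and in anterior oral against nasal from 0 to 6 and 4. In posterior oral against nasal 132 genes became 11 without a minimum, 68 in the fit of all 25 libraries and 15 with the run, each with 0 members called. There the adjusted p of Dkk1 was 0.126, 0.884 and 0.915, and 0.0446 with the replicate block. For posterior against anterior 286 genes became 485 without a minimum (195 higher, 290 lower) and 143 with the run, where 2 members, Wif1 and Frzb, were called. Without the 6 libraries named Tgfbr2_WT or ERK2_WT 3 members were called, Frzb, Dkk2 and Rspo3, and the F test called 5. Rspo1 also missed the threshold at a pseudocount of 0.01 (adjusted p = 0.0549), without a minimum (0.0763) and with the replicate block (0.0764). For the change of the lateral-medial difference, 1 gene became 6 at a pseudocount of 1, 0 without a minimum, 0 with the replicate block, 10 in the fit of all 25 libraries and 3 with the run. For that of the oral-nasal difference, 4 genes became 7 at a pseudocount of 1, 1 at 0.01, 0 without a minimum, 0 with the replicate block, 10 in the fit of all 25 libraries and 0 with the run. The F test called 177 genes with the run, where Rspo3 lost the call (adjusted p = 0.164) and Frzb gained it (0.0365). The replicate block put Dkk3 past the F test threshold (adjusted p = 0.0494) and changed no other member's call but that of Rspo1. Signs changed in values that had not been called. With the run they became 0.0199 for Rspo3 in posterior lateral against medial, -0.0927 for Frzb in anterior oral against nasal, 0.0162 for Sfrp1 in posterior against anterior, and, in the change of the lateral-medial difference, 0.0454 for Sfrp2 and 0.0493 for Dkk1. With centring Frzb in anterior oral against nasal became -0.0077. With the replicate block the change of the oral-nasal difference became -0.0416 for Frzb and 0.0076 for Dkk3. Leaving out each library in turn gave 55 to 195 genes and 0 to 1 members in anterior lateral against medial, 0 to 1 genes in posterior lateral against medial, 0 to 6 genes in anterior oral against nasal, and 12 to 57 genes with 0 members in posterior oral against nasal. It gave 231 to 414 genes and 4 to 5 members in posterior against anterior, 0 to 9 and 0 to 5 genes for the changes of the lateral-medial and oral-nasal differences, and 386 to 737 genes with 3 to 4 members in the F test. The same fits gave log2 ranges that crossed 0. In anterior lateral against medial they were -0.21 to 0.0546 for Frzb and -0.40 to 0.0403 for Sfrp2. In posterior lateral against medial they were -0.32 to 0.20 for Dkk3, -0.69 to 0.21 for Sfrp2 and -0.0781 to 2.92 for Rspo1. In anterior oral against nasal they were -0.49 to 0.35 for Frzb, -1.002 to 0.25 for Sfrp2 and -1.74 to 0.0084 for Dkk1. For the change of the lateral-medial difference they were -0.50 to 0.40 for Sfrp2, -0.46 to 0.35 for Dkk1 and -0.55 to 2.45 for Rspo1. For that of the oral-nasal difference they were -0.0820 to 0.76 for Frzb, -1.72 to 0.0255 for Dkk1 and -0.16 to 0.0732 for Dkk3. The cause was not tested.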
